A study of Mus musculus with 9 samples.

Results

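Pentraxin 3 (*Ptx3*), the 5 subunits of the transcription factor NF-κB (*Nfkb1*, *Nfkb2*, *Rel*, *Rela* and *Relb*), the inhibitors *Nfkbia* and *Tnfaip3* and the surface receptors *Tlr2* and *Tlr4* were followed across parental and *Vangl2*-edited mammary epithelial cells. These are 10 of the 55228 genes in the count table. They were picked by name when their counts in these same cultures were already known, so their differences between the lines, and the calls counted on them, are a description, and no p-value is given for them. All 10 were among the 15253 genes that passed the expression filter. *Ptx3* passed it through *WT* and *KD2*, since it was nearly without counts in *KD1*.

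HC11 cells are a line of mouse mammary epithelium used to model lactogenic differentiation. Poly-A RNA was sequenced from 3 cultures each of the unedited parental cells (*WT*) and of the lines *KD1* and *KD2*, to ask which transcripts change when *Vangl2*, a membrane protein of planar cell polarity, is lost. Each edited line grew from a single colony of HC11 cells that had received Cas9, 1 of 2 guides against *Vangl2* and a repair template with stop codons; the labels call them knockouts. All 9 cultures were undifferentiated, received no treatment and grew with FBS (10%), insulin (5 µg/mL) and EGF (10 ng/mL) in the medium. A line is thus 1 clone, no clone made without a guide was analysed here, and what belongs to the edit and what belongs to the clone cannot be told apart. Nothing in the labels says whether the 3 cultures of a line were grown separately, so the errors measure the spread between these cultures, which may be technical.

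Between 19231428 and 28360592 reads per culture were counted on genes. Counts were scaled to a common library size (CPM) with TMM factors, and 3 counts, taken as the floor of what a library can show, are 0.0999 to 0.154 CPM (counting error only). The *Vangl2* transcript was at 3.38, 3.96 and 4.20 CPM in *WT*, 2.77, 1.89 and 2.78 CPM in *KD1*, and 3.64, 3.93 and 4.43 CPM in *KD2*. It was lower in *KD1* by edgeR's quasi-likelihood test (log2 fold change -0.63, Benjamini-Hochberg adjusted p = 0.00581) and overlapped *WT* in *KD2* (log2 fold change 0.05, adjusted p = 0.810). A count over the whole gene does not read the edit itself, so it does not check the *KD2* label, and *KD1* and *KD2* stand throughout for the cultures so labelled. The authors report immunoblots with almost no VANGL2 protein in *KD1* and a strongly reduced amount in *KD2*. Protein was not measured in the data used here. *WT* replicate 1 and *KD2* replicate 3 stood apart from the other cultures of their lines, and results were also computed without both. The 6 epithelial markers, led by *Krt5* and *Krt14*, summed to between 4818 and 5389 CPM in *WT*, between 5464 and 5607 in *KD1*, and between 2873 and 3564 in *KD2*. The lower sum in *KD2* came from *Krt5*, *Krt14*, *Epcam* and *Cdh1*. *Krt8* was higher in *KD2* than in *WT* (245 to 301 against 133 to 172 CPM), and *Krt18* overlapped *WT* (129 to 147 against 109 to 132 CPM). The 8 macrophage and leukocyte markers summed to 3.17 to 6.09, 7.18 to 8.65 and 3.72 to 4.82 CPM, nearly all from *Cd68*, and the defining markers *Adgre1* and *Tyrobp* had no count in any culture. The 5 fibroblast markers summed to 7.38 to 9.60 CPM in *WT* and in *KD1* alike, but to 80.5 to 89.0 CPM in *KD2*, mostly from *Pdgfrb*, while *Dcn*, *Lum* and *Thy1* stayed at or near 0.

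NF-κB is a family of dimers built from the products of *Nfkb1* (p105, cut to p50), *Nfkb2* (p100, cut to p52), *Rel* (c-Rel), *Rela* (p65) and *Relb*. In resting cells the dimers are held in the cytoplasm by IκB proteins such as the product of *Nfkbia*, until a kinase complex activated below Toll-like, TNF or interleukin 1 receptors marks the IκB for destruction. Freed dimers bind κB motifs and switch on cytokine genes together with their own brakes, among them *Nfkbia* and the ubiquitin-editing enzyme A20 encoded by *Tnfaip3*. PTX3 is a secreted pattern recognition protein, and in the mammary gland NF-κB takes part in ductal growth and in the response to mastitis.

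To show what the start sites of these genes look like, stretches from 180 bases before to 10 bases after the RefSeq start were read from promoter windows of build GRCm38.p6, on the strand of the gene. They lie at chr3:66219707-66219896 (plus strand) for *Ptx3*, chr3:83841599-83841788 (minus) for *Tlr2*, chr10:19015401-19015590 (minus) for *Tnfaip3*, chr12:55492638-55492827 (minus) for *Nfkbia*, chr19:46304557-46304746 (plus) for *Nfkb2*, chr11:23770960-23771149 (minus) for *Rel* and chr19:5637361-5637550 (plus) for *Rela*. Capitals mark matches, on either strand and merged where they overlap, to the 10-base consensus κB motif. *Rela* is shown for contrast, as the only member with a window but without a match. For *Tnfaip3* and *Nfkb2*, which have several start sites in the table, the first is shown.
Ptx3: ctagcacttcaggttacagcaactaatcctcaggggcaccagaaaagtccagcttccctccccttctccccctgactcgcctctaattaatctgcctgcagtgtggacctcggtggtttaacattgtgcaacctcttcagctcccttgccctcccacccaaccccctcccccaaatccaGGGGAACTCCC
Tlr2: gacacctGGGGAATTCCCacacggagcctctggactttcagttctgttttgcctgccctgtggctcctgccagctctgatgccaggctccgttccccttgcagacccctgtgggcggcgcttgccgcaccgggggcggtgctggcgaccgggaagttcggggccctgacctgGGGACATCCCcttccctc
Tnfaip3: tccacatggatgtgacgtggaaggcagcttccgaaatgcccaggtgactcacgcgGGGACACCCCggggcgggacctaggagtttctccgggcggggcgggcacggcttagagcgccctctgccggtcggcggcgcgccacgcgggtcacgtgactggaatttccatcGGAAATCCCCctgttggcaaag
Nfkbia: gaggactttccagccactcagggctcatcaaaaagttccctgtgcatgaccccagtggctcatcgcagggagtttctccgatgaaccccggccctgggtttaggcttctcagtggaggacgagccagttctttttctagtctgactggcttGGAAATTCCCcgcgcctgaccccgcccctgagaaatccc
Nfkb2: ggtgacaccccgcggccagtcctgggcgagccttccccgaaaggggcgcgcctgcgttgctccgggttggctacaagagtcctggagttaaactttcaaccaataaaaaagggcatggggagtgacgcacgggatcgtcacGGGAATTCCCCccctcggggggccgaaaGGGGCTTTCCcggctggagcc
Rel: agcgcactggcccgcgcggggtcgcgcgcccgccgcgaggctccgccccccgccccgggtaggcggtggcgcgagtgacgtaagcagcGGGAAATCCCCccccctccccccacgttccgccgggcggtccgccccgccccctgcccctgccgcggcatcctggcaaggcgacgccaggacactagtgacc
Rela: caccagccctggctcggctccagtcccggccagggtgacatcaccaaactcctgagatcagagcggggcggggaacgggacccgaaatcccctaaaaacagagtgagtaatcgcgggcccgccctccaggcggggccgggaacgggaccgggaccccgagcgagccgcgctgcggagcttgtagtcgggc

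The motif began 1 base before the start of *Ptx3*, 173 and 8 bases before that of *Tlr2*, 125 and 12 bases before that of *Tnfaip3*, 29 before that of *Nfkbia*, 39 and 11 before that of *Nfkb2* and 92 before that of *Rel*. Over windows from 250 bases before to 50 after a start, 6 of the 7 members with a window held it, against 4.51% of 32851 windows and 5.14% of the 27025 genes in the table. Among the other genes of the pathway with a window, it was held by 3 of 4 IκB genes, 9 of 20 NF-κB target genes, 5 of 17 TRAF, ubiquitin and feedback genes, 1 of 7 kinase genes, 2 of 16 TNF and interleukin 1 ligands and receptors, 1 of 17 Toll-like receptor and adaptor genes and 0 of 3 pentraxin and partner genes. *Nfkb1*, *Relb* and *Tlr4* had no window. A match describes the letters and does not show that a factor binds there.

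In *KD1* the transcripts of *Nfkbia*, *Tnfaip3* and *Tlr2* stood at more than 2 times their *WT* level and *Ptx3* was almost without reads, while in *KD2* *Ptx3* and *Tlr2* were the members above that mark. With a call set at a Benjamini-Hochberg adjusted p under 0.05 in edgeR's quasi-likelihood test and a fold above 2, 4 of 10 members were called in *KD1*, 3 higher and 1 lower, where 16.8% of all genes were called (9.34% higher and 7.49% lower). In *KD2*, 2 of 10 were called, both higher, where 21.2% of all genes were (14.5% higher and 6.71% lower). Every *KD1* culture was above every *WT* culture for 9 members and below for *Ptx3*, and such separation held for 68.8% of all genes (32.4% above and 36.4% below). Every *KD2* culture was above every *WT* culture for 8 members and below for *Nfkb1*, and 67.9% of all genes were separated in that comparison (34.6% above and 33.4% below). Because the members were chosen on these same comparisons, nothing is read from their counts against these shares. Both comparisons use the same *WT* cultures. In bulk RNA, fewer cells that make a transcript and less of it per cell cannot be told apart.

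**Figure D1:**
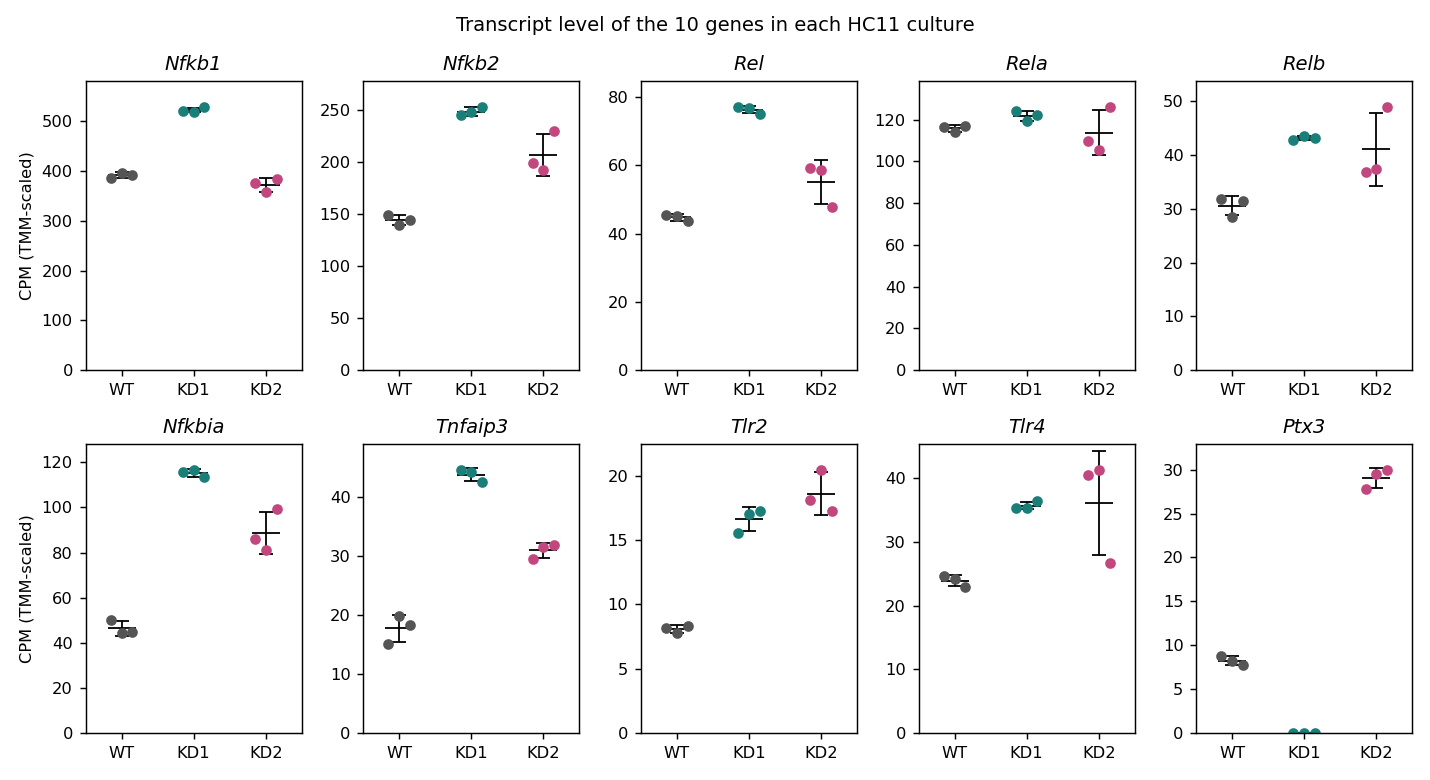
Transcript level of each of the 10 genes in CPM (vertical axis, from 0) in the 3 cultures of *WT*, *KD1* and *KD2*; points are cultures, and bars are the mean and SD of 3 cultures. *Ptx3* was at 0 to 0.0403 CPM in *KD1* and at 27.8 to 30.0 CPM in *KD2*, with *WT* between them.

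All 5 NF-κB subunits had every *KD1* culture above every *WT* culture, by less than 2-fold in the fitted value, and *Rela* differed least in both lines. *Nfkb2*, whose precursor p100 restrains and then supplies the non-canonical pathway, was at 149, 139 and 144 CPM in *WT*, 244, 248 and 252 in *KD1* and 199, 192 and 230 in *KD2*. Its cultures did not overlap between any of the lines, with *KD1* highest. On the log2 scale the fold change against *WT* was 0.79 (SE 0.07) in *KD1* and 0.52 (SE 0.07) in *KD2*. Exons of *Psd* and *AC114539.1* on the opposite strand cover 18.1% of the bases in *Nfkb2* exons, and the use of strand in counting is not stated, so part of its reads may belong to those genes.

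*Rel*, the subunit best known from lymphoid cells, was at 45.5, 45.2 and 43.6 CPM in *WT*, 76.9, 76.8 and 75.1 in *KD1* and 59.1, 58.7 and 47.7 in *KD2*. All 3 lines were apart, though *KD2* replicate 3 lay close to *WT*. On the log2 scale it differed from *WT* by 0.77 (SE 0.08) in *KD1* and 0.30 (SE 0.08) in *KD2*, and the latter was 0.42 without *KD2* replicate 3. *Relb*, the partner of p52, was at 31.8, 28.5 and 31.5 CPM in *WT*, 42.9, 43.6 and 43.2 in *KD1* and 36.9, 37.4 and 48.9 in *KD2*. The edited lines overlapped each other and lay above *WT*, with *KD2* replicate 3 here the highest of all cultures. On the log2 scale these differences from *WT* were 0.50 (SE 0.10) in *KD1* and 0.42 (SE 0.10) in *KD2*.

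*Nfkb1*, the source of p50, separated the lines from each other. It was at 386, 397 and 392 CPM in *WT*, 521, 519 and 528 in *KD1* and 376, 357 and 383 in *KD2*, so that *KD1* lay above *WT* and *KD2* just below it. The log2 fold change was 0.42 (SE 0.05) in *KD1* and -0.07 (SE 0.05) in *KD2*, the latter turning to 0.04 when library size alone was used for scaling. *Rela*, the subunit that carries the main activation domain of the p50-p65 dimer, was at 116, 114 and 117 CPM in *WT*, 124, 119 and 122 in *KD1* and 110, 105 and 126 in *KD2*. *KD2* cultures lay on both sides of *WT*. The log2 fold change was 0.07 (SE 0.07) in *KD1* and -0.03 (SE 0.07) in *KD2*, and in *KD2* its sign changed in 4 of 17 alternative settings.

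**Figure D2:**
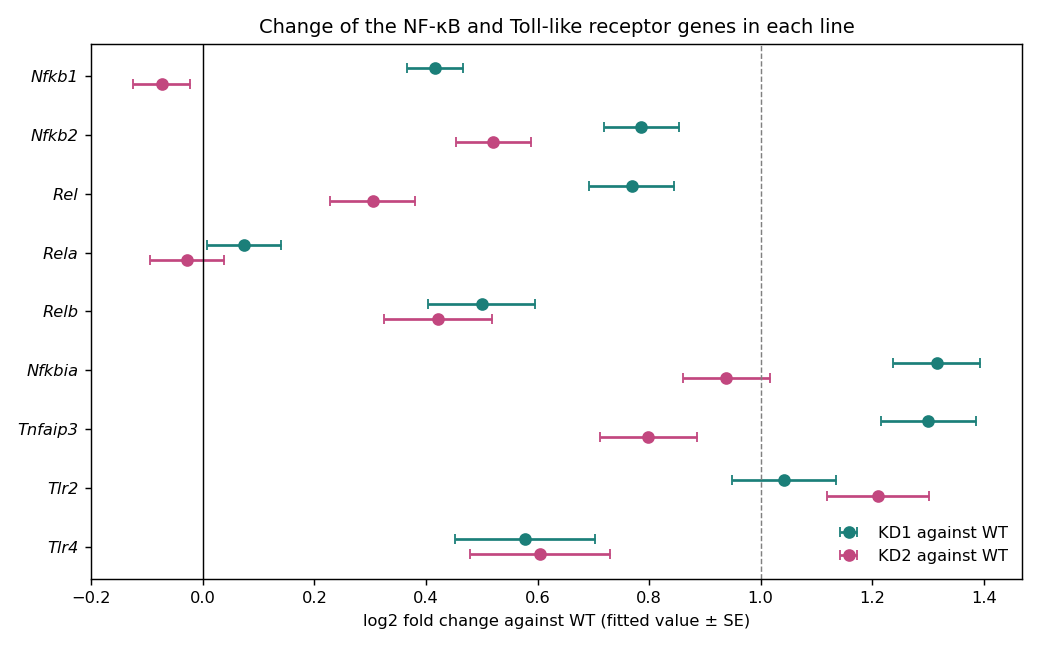
Fitted log2 fold change against *WT* (horizontal axis) of 9 of the genes in *KD1* and *KD2*; points are fitted values from 3 cultures a line, bars are SE, the solid line is no change and the dashed line a 2-fold rise. *Ptx3* is left out because it had 1 count in *KD1*; *Nfkbia* and *Tnfaip3* lie beyond the dashed line in *KD1* and short of it in *KD2*, and *Rela* lies near 0 in both.

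Set on a scale that allows for gene length (RPKM, the CPM divided by the kilobases of exon), the order of the subunits differed between the lines. The length used joins all annotated exons of a gene, 12061 bases for *Nfkb1*, 4584 for *Nfkb2* and 3072 for *Rela*. It can exceed the length of the transcripts made, so the order between genes depends on it, unlike the change of a gene between lines. In CPM, *Nfkb1* was the highest member in every line. Per length, *Rela* was the highest member in *WT* at 37.7 ± 0.54 RPKM (SD, n = 3), followed by *Nfkb1* at 32.5 ± 0.46, *Nfkb2* at 31.4 ± 1.01 and *Nfkbia* at 28.8 ± 2.00. The cultures of *Rela* lay above those of *Nfkb1*, whereas *Nfkb1* and *Nfkb2*, and *Nfkb2* and *Nfkbia*, overlapped. In *KD1* the order was *Nfkbia* at 71.6 ± 1.01, *Nfkb2* at 54.1 ± 0.84, *Nfkb1* at 43.3 ± 0.39 and *Rela* at 39.7 ± 0.78 RPKM, with no overlap between neighbours. In *KD2* it was *Nfkbia* at 55.2 ± 5.78, *Nfkb2* at 45.1 ± 4.40, *Rela* at 37.0 ± 3.51 and *Nfkb1* at 30.8 ± 1.13 RPKM, again without overlap. On this scale the inhibitor and the p100 gene thus stood above both parts of the p50-p65 dimer in the edited lines and below *Rela* in *WT*. In CPM both lay below *Nfkb1* in every line.

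The remaining members were lower per length. In *WT*, *Relb* was at 7.88, *Rel* at 5.99, *Tlr4* at 4.30, *Ptx3* at 3.07, *Tlr2* at 2.68 and *Tnfaip3* at 2.45 RPKM, and only *Tlr2* and *Tnfaip3* overlapped among these neighbours. In *KD2*, *Ptx3* at 10.8 ± 0.42 RPKM stood beside *Relb* (10.6 ± 1.74 RPKM), with overlapping cultures. *Tnfaip3*, last in *WT*, stood above *Tlr2* in *KD1* (6.05 against 5.52 RPKM).

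Summed over the 5 subunits, the level was 115 ± 1.46 RPKM in *WT*, 158 ± 1.19 in *KD1* and 131 ± 9.71 in *KD2*, and the ranges of the lines did not overlap. The share of *Nfkb2* in that sum was 27.2% ± 0.56 in *WT*, 34.2% ± 0.40 in *KD1* and 34.4% ± 0.79 in *KD2*. The share of *Rela* was 32.7% ± 0.21, 25.0% ± 0.43 and 28.2% ± 0.57. Edited lines therefore overlapped in the share of *Nfkb2* and did not overlap in that of *Rela*. The sum and the shares depend on the exon lengths used. The ratio of *Nfkb2* to *Rela* was 0.833 ± 0.02 in *WT*, 1.37 ± 0.04 in *KD1* and 1.22 ± 0.0047 in *KD2* on the RPKM scale. The ratio of *Nfkbia* to *Rela* was 0.763 ± 0.05 in *WT*, 1.81 ± 0.05 in *KD1* and 1.49 ± 0.02 in *KD2*, so the inhibitor gained on *Rela* more than *Nfkb2* did.

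**Figure D3:**
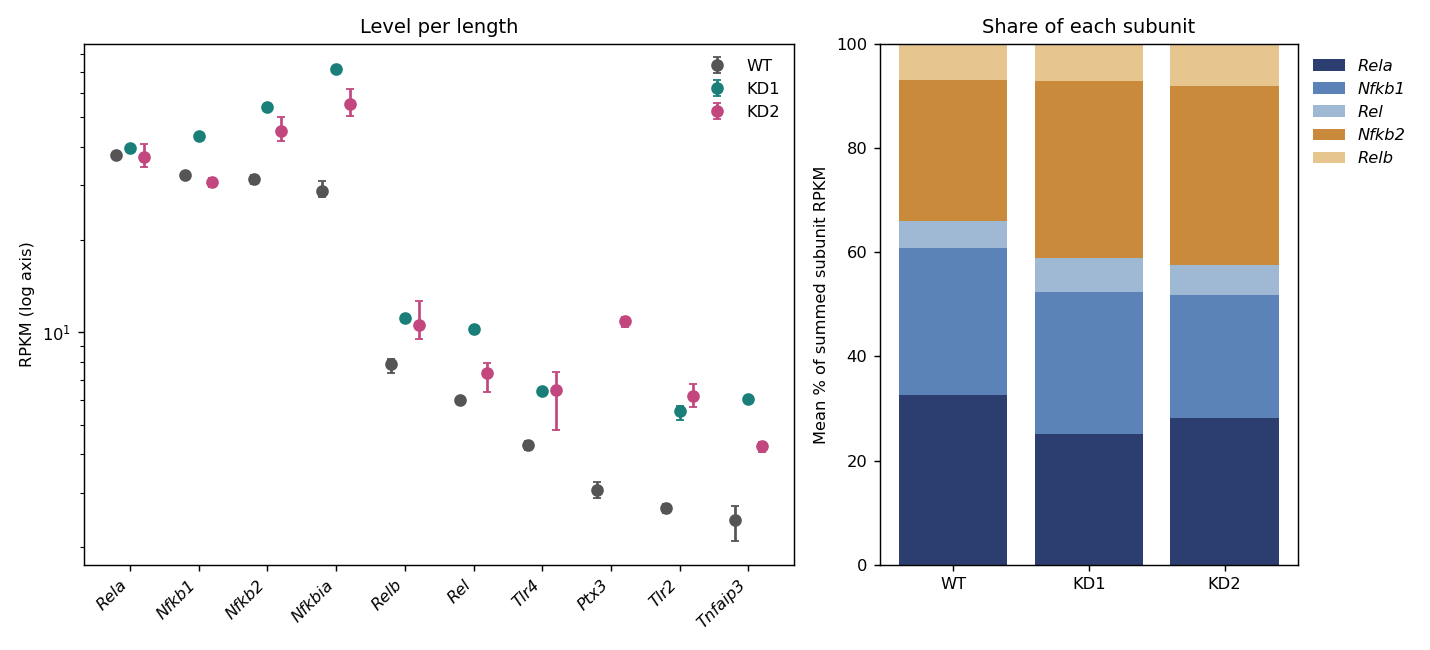
Left, level per length of the 10 genes in RPKM on a log axis, ordered by the *WT* mean; points are means of 3 cultures and bars run from the lowest to the highest culture, and *Ptx3* in *KD1*, with 2 cultures at 0, cannot be drawn. Right, mean share of each NF-κB subunit in their summed RPKM, in percent; *Nfkb2* goes from 27.2% in *WT* to 34.2% in *KD1* and 34.4% in *KD2*.

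Both feedback inhibitors stood higher in both edited lines, most in *KD1*. *Nfkbia* was at 50.04, 44.2 and 44.7 CPM in *WT*, 116, 117 and 113 in *KD1* and 85.9, 81.4 and 99.3 in *KD2*. The 3 lines did not overlap, and the spread was widest in *KD2*. The level was 2.49 times that of *WT* in *KD1* (log2 fold change 1.32, SE 0.08) and 1.92 times in *KD2* (log2 fold change 0.94, SE 0.08). In *KD2* it passed the 2-fold mark without *KD2* replicate 2 (1.00 on the log2 scale), under library size scaling (1.05) and with the stricter count filter (1.01), and was thus called there in some settings only. *Tnfaip3* was at 15.1, 19.7 and 18.2 CPM in *WT*, 44.5, 44.2 and 42.5 in *KD1* and 29.3, 31.5 and 31.8 in *KD2*. Its lines were apart too, in the same order. The log2 fold change was 1.30 (SE 0.09) in *KD1* and 0.80 (SE 0.09) in *KD2*.

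Of the receptors, TLR2 senses bacterial lipopeptides as a dimer with TLR1 or TLR6, and TLR4 senses lipopolysaccharide. *Tlr2* was at 8.14, 7.76 and 8.35 CPM in *WT*, 15.6, 17.0 and 17.3 in *KD1* and 18.2, 20.5 and 17.3 in *KD2*. The edited lines overlapped each other, and their lowest culture lay well above the highest of *WT*. The log2 fold change was 1.04 (SE 0.09) in *KD1* and 1.21 (SE 0.09) in *KD2*. *Tlr4* was at 24.6, 24.2 and 22.9 CPM in *WT*, 35.4, 35.3 and 36.3 in *KD1* and 40.5, 41.3 and 26.7 in *KD2*. *KD2* replicate 3 lay far below its line, at -0.61 on the log2 scale against the mean of the other two, where the median gene of that library deviated by 0.217. The log2 fold change was 0.58 (SE 0.13) in *KD1* and 0.60 (SE 0.13) in *KD2*, and 0.80 in *KD2* without that culture. Per length, *Tlr4* stood at 1.61 ± 0.11 times *Tlr2* in *WT*, 1.17 ± 0.06 times in *KD1* and 1.05 ± 0.19 times in *KD2*.

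*Ptx3* lay below *WT* in *KD1* and above it in *KD2*. The gene occupies chr3:66219910-66225805 of GRCm38 on the plus strand, and its exons overlap no other gene. It had 171, 205 and 159 counts in *WT*, 0, 0 and 1 in *KD1* and 688, 887 and 609 in *KD2*, which is 8.76, 8.20 and 7.76 CPM in *WT*, 0, 0 and 0.0403 CPM in *KD1* and 27.8, 29.5 and 30.0 CPM in *KD2*. The summed scaled count in *WT* was 636 times that in *KD1*, with a 95% exact counting interval of 114 to 25179. In *KD2* the level was 3.53 times that in *WT* (log2 fold change 1.82, SE 0.09). The ratio of *KD2* to *KD1* was 2248, with a counting interval of 403 to 88837. *KD2* replicate 3 and *WT* replicate 1 did not stand out here, deviating by 0.06 and 0.13 on the log2 scale from the other two cultures of their lines. The 19 tested genes within 2 Mb of *Ptx3* had a median log2 fold change of 0.01 in *KD1* and -0.14 in *KD2*. In *KD1*, 3 of them were called higher and 3 lower, where 9.34% and 7.49% of all genes were. In *KD2*, 2 were called higher and 1 lower, where 14.5% and 6.71% of all genes were. Nothing is read from so few genes. Of the fibroblast markers, *Pdgfrb* was at 0.563 to 1.03 CPM in *WT*, 0.0807 to 0.197 in *KD1* and 63.5 to 72.6 in *KD2*. *Pdgfra* was at 6.81 to 8.72 CPM in *WT*, 7.26 to 9.45 in *KD1* and 16.3 to 16.6 in *KD2*, and *Dcn*, *Lum* and *Thy1* were at or near 0 in every line. The part of these markers in the level of *Ptx3* was not tested.

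Over the 9 cultures, the 5 genes whose log2 CPM relative to *WT* lay nearest to that of *Ptx3* were *Samd5*, *Col5a1*, *Sod3*, *Adamtsl3* and *Fbln5*, at root mean square distances of 0.436 to 0.596. *Col5a1*, a fibrillar collagen chain, was at 24.4 to 25.3 CPM in *WT*, 0.0807 to 0.258 in *KD1* and 67.4 to 85.9 in *KD2*. *Fbln5*, an elastic fibre protein, was at 62.5 to 66.6, 1.26 to 1.49 and 212 to 221 CPM. *Sod3*, the extracellular superoxide dismutase, was at 40.9 to 52.6, 0.511 to 0.968 and 94.4 to 121 CPM. These genes were picked for their likeness to *Ptx3* in the same cultures, so the likeness itself carries no test.

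Among other genes of the pentraxin family and genes of the hyaluronan matrix, 3 of 7 were tested. *Tnfaip6*, whose product TSG-6 joins PTX3 and hyaluronan in the cumulus matrix, was at 5.57 to 6.81 CPM in *WT*, 3.06 to 3.67 in *KD1* and 13.5 to 16.7 in *KD2*. In edgeR's test it rose in *KD2* (log2 fold change 1.38, SE 0.12, adjusted p = 1.99e-07) and fell by less than 2-fold in *KD1* (log2 fold change -0.80, adjusted p = 0.000208). *Has2*, the main hyaluronan synthase, rose in *KD1* (log2 fold change 1.15, adjusted p = 2.06e-07) and was at -0.21 in *KD2* (adjusted p = 0.083), with 4.30% of its exon bases under *Has2os* on the opposite strand. *Nptxr*, a neuronal pentraxin receptor, was lower in both lines (-1.95 and -1.76), but 17.2% of its exon bases overlap *Npcd* on the same strand.

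The rest of the pathway was taken as 7 lists with 109 genes, of which 89 were tested. They were written when part of the results was known and describe counts, not a test of the lists. Some genes, such as *Tlr1*, *Vcam1* and *Csf2*, passed the expression filter only through an edited line, which favours a call of higher there. In *KD1*, 34 of the 89 were called higher and 5 lower by edgeR's quasi-likelihood test (43.8% in all, where 16.8% of all genes were called, 9.34% higher and 7.49% lower), and in *KD2* 33 higher and 5 lower (42.7%, where 21.2% were, 14.5% higher and 6.71% lower). The median log2 fold change over these genes was 0.56 in *KD1* and 0.46 in *KD2*, and over all genes tested -0.03 and 0.01.

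**Figure D4:**
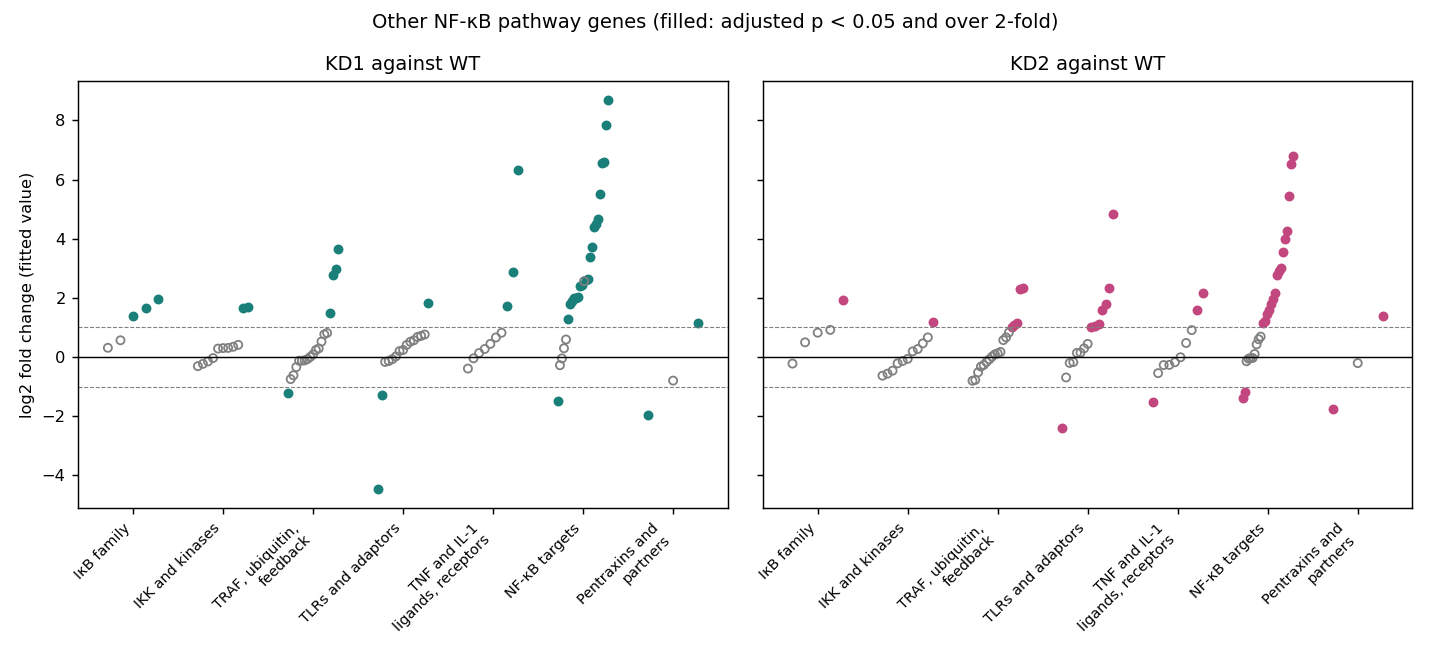
Fitted log2 fold change against *WT* (vertical axis) of the 89 tested pathway genes by list, for *KD1* (left) and *KD2* (right); each circle is 1 gene, filled where it was called (adjusted p under 0.05 and more than 2-fold, dashed lines) and open where it was not. NF-κB targets have a median of 2.50 in *KD1* and 1.52 in *KD2*; the topmost of them, *Csf2*, has no count in *WT*, so its fitted value depends on the prior count.

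Of the 5 other IκB genes, 3 were called higher in *KD1* and 1 in *KD2*, and none lower. These are 60% and 20% of the list, where 16.8% and 21.2% of all genes were called. *Nfkbie*, encoding the inhibitor IκBε, was at 19.8 to 22.0 CPM in *WT*, 64.9 to 65.7 in *KD1* and 73.6 to 83.3 in *KD2*, with log2 fold changes of 1.66 (SE 0.07) and 1.92 (SE 0.07) and adjusted p-values of 7.76e-11 and 3.97e-11 in edgeR's quasi-likelihood test. *Nfkbiz*, a nuclear IκB that helps switch on secondary targets such as *Lcn2*, was at 43.1 to 48.0 CPM in *WT*, 173 to 184 in *KD1* and 78.2 to 92.6 in *KD2*. It rose further in *KD1* than in *KD2*, with a difference of -1.05 on the log2 scale between *KD2* and *KD1* (edgeR, adjusted p = 9.37e-09). *Nfkbid* was called in *KD1* (1.40) and not in *KD2* (0.50, edgeR adjusted p = 0.0686), and the difference between *KD2* and *KD1* was -0.90 (adjusted p = 0.000869).

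Among the 11 kinase genes above the IκBs, 2 were called higher in *KD1* and 1 other in *KD2*, shares of 18.2% and 9.09% that lie near and below those of all genes (16.8% and 21.2%). *Map3k14* encodes NIK, the kinase that starts p100 processing in the non-canonical pathway. It was at 35.5 to 43.2 CPM in *WT*, 34.5 to 35.7 in *KD1* and 81.3 to 101 in *KD2*, a log2 fold change of 1.19 (SE 0.09, edgeR adjusted p = 5.18e-08) in *KD2* against -0.15 (adjusted p = 0.175) in *KD1*. *Ripk2*, the adaptor kinase of NOD receptors, was at 27.0 to 30.1 CPM in *WT*, 89.8 to 93.4 in *KD1* and 35.1 to 41.5 in *KD2*. *Map3k8*, or TPL2, showed the same order, at 2.10 to 3.07, 8.27 to 8.85 and 3.60 to 5.41 CPM. Between *KD2* and *KD1*, *Map3k14* was higher in *KD2* (1.34, edgeR adjusted p = 1.06e-08) and *Ripk2* lower (-1.23, adjusted p = 2.28e-09).

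Of the 19 TRAF, ubiquitin and feedback genes, 4 were called higher and 1 lower in *KD1*, and 5 higher in *KD2*. That is 26.3% in each line, where 16.8% and 21.2% of all genes were called, so the share in *KD2* is near that of all genes. *Zc3h12a*, the RNase Regnase-1 that degrades cytokine mRNAs, was at 10.7 to 12.4 CPM in *WT*, 91.5 to 96.2 in *KD1* and 18.4 to 24.6 in *KD2*, with log2 fold changes of 2.99 (SE 0.10) and 0.83 (SE 0.10). *Tnip3*, a partner of A20, was at 0.160 to 0.563, 4.02 to 4.56 and 0.566 to 1.13 CPM, and its call in *KD2* was lost without *KD2* replicate 3 or *WT* replicate 2 (edgeR adjusted p = 0.0537 and 0.0977; log2 fold change 0.88 and 0.78, against 1.16). *Birc3*, the ubiquitin ligase cIAP2, was at 0.666 to 0.840, 5.02 to 5.61 and 1.48 to 1.66 CPM, with 7.56% of its exon windows shared with other genes. *Traf1*, an NF-κB-induced adaptor of TNF receptors, was also above *WT* in both lines, but was highest in *KD2* rather than *KD1*. It was at 3.88 to 4.44 CPM in *WT*, 6.90 to 7.35 in *KD1* and 20.1 to 24.5 in *KD2*.

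Of 22 other Toll-like receptors, co-receptors and adaptors, 15 were tested. In *KD1*, 1 was called higher and 2 lower, and in *KD2* 7 were called higher and 1 lower. The share in *KD1*, 20%, is near the 16.8% of all genes, and that in *KD2* is 53.3% against 21.2%. *Lbp*, which hands lipopolysaccharide to CD14, was at 1.04 to 1.61 CPM in *WT*, 0.0369 to 0.0807 in *KD1* and 5.98 to 6.64 in *KD2*. Its *KD1* cultures had 1, 1 and 2 counts, under the floor of 3, so the size of its fall is imprecise. Like *Ptx3* it lay below *WT* in *KD1* and above it in *KD2* (log2 fold changes -4.46 and 2.33, edgeR adjusted p = 3.38e-07 and 4.59e-08). *Tlr5*, the flagellin receptor, did the same at 3.64 to 5.16, 1.51 to 2.26 and 8.26 to 9.79 CPM. *Tlr1* was near the floor in *WT* and *KD1* (at most 0.195 and 0.236 CPM) and at 3.27 to 4.29 CPM in *KD2*, with 15.4% of its exon windows shared, chiefly with *Tlr6*. *Ly96*, encoding the TLR4 co-receptor MD-2, rose in both lines (1.81 and 1.02; edgeR adjusted p = 5.28e-06 and 0.00119). *Cd14*, named after its values were seen, was at 6.20 to 7.18, 10.3 to 11.8 and 18.7 to 21.7 CPM. Against *WT* the log2 fold change was 0.76 in *KD1* and 1.60 in *KD2*.

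Of 17 TNF and interleukin 1 ligands and receptors, 10 were tested, and 3 were called higher in *KD1*, 2 higher and 1 lower in *KD2*. Each is 30% of those tested, where 16.8% of all genes were called in *KD1* and 21.2% in *KD2*. *Il1a*, an alarmin of epithelial cells, was at 17.1, 10.6 and 11.3 CPM in *WT*, 1029.6, 1054 and 1009.9 in *KD1* and 4.12, 4.83 and 4.43 in *KD2*. The groups were far apart, with log2 fold changes of 6.32 (SE 0.14) in *KD1* and -1.53 (SE 0.16) in *KD2* (edgeR, adjusted p = 1.47e-13 and 1.13e-06). An opposite-strand gene, *Gm14023*, covers 11.2% of its exon bases. *Il1rn*, encoding the secreted antagonist of interleukin 1, was at 5.44 to 6.15, 18.1 to 19.6 and 4.57 to 5.46 CPM. *Tnfrsf1b*, the TNF receptor 2 gene, was at 6.25 to 7.80, 10.6 to 11.1 and 30.0 to 31.4 CPM, higher in *KD2* than in *KD1* by 1.50 on the log2 scale (edgeR, adjusted p = 1.69e-09).

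Of the 28 NF-κB target genes, 26 were tested, and most were called in each line. In *KD1*, 20 were called higher and 1 lower, with a median log2 fold change of 2.50. In *KD2*, 16 were called higher and 2 lower, with a median of 1.52. The shares called were 80.8% in *KD1* and 69.2% in *KD2*, where 16.8% and 21.2% of all genes were. Some targets, such as *Icam1*, *Vcam1*, *Ccl2* and *Csf2*, had at most 2 counts in any *WT* culture. They passed the expression filter only through an edited line, which favours a call of higher there, so the shares and medians describe the list only. Of the 26, 12 were called higher in both lines. Both comparisons use the same *WT* cultures, and no share of all genes called in both is given, so nothing is read from this count. *Csf3*, the gene for G-CSF, was at 3.07, 1.64 and 2.83 CPM in *WT*, 575, 590 and 548 in *KD1* and 1.98, 2.00 and 3.44 in *KD2*. *KD2* overlapped *WT*, and the log2 fold change was 7.86 (SE 0.17, edgeR adjusted p = 1.13e-13) in *KD1* and -0.03 (SE 0.24, adjusted p = 0.905) in *KD2*. *Cxcl2*, a neutrophil chemokine that shares 5.84% of its exon windows with *Cxcl3*, was at 0.195 to 0.440 CPM in *WT*, 28.3 to 30.3 in *KD1* and 0.485 to 0.865 in *KD2*. Against *WT* its log2 fold change was 6.56 in *KD1* and 1.16 in *KD2*, and the call in *KD2* was lost without *KD2* replicate 2 (0.90, edgeR adjusted p = 0.0516). *Ccl5* was at 0.0976 to 0.320, 21.1 to 21.7 and 1.09 to 1.82 CPM. *Csf2*, the gene for GM-CSF, had no count in *WT* and was at 2.01 to 2.30 CPM in *KD1* and 0.399 to 0.849 in *KD2*, at least 15.3-fold and 4.19-fold higher than *WT* when a floor of 3 counts per library is put in its place. *Gm12223* on the opposite strand covers 12.0% of its exon bases.

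The following targets were named after their values were seen. *Cxcl1* and *Cxcl5*, ligands of CXCR2, were at 29.4 to 38.9 and 11.4 to 15.8 CPM in *WT*, 679 to 716 and 603 to 660 in *KD1*, and 44.5 to 54.0 and 36.9 to 39.0 in *KD2*. *Il6* was at 1.92 to 2.15, 48.6 to 53.4 and 11.1 to 17.1 CPM. Complement *C3* was at 220 to 246 CPM in *WT*, 1235 to 1286 in *KD1* and 939.9 to 1124 in *KD2*, and lay lower in *KD2* than in *KD1* by less than 2-fold (log2 difference -0.26, edgeR adjusted p = 0.00338; -0.14 and 0.0827 when library size alone was used for scaling). *Lcn2*, encoding the iron-trapping lipocalin 2, was higher in *KD2* than in *KD1*, at 3.32 to 4.64, 22.9 to 24.8 and 51.4 to 73.2 CPM. The cytokine gene *Lif* was at 61.1 to 68.5, 658 to 681 and 51.3 to 64.8 CPM.

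In 3 targets the lines were called in opposite directions. *Plau*, the urokinase gene, was at 48.1 to 55.8 CPM in *WT*, 327 to 339 in *KD1* and 20.6 to 24.8 in *KD2*. *Tnfaip2* was at 11.5 to 16.9, 47.8 to 50.3 and 4.93 to 5.86 CPM, with 6.30% of its exon bases under *Gm40578*. *Ccl20* was low throughout, at 0.200 to 0.439, 0.0393 to 0.185 and 0.728 to 0.865 CPM. Its log2 fold change was -1.51 in *KD1* and 1.22 in *KD2*, and -1.55 and 1.20 in DESeq2, where both calls were lost (adjusted p = 0.0668 and 0.0582). The call in *KD1* was lost also without *KD1* replicate 2 or 3 or *WT* replicate 1 or 3. Across all 7 lists, 17 of 89 genes were called higher in both lines, 1 lower in both, and 6 in opposite directions (*Il1a*, *Plau* and *Tnfaip2* higher in *KD1*, and *Tlr5*, *Lbp* and *Ccl20* higher in *KD2*). With the *WT* cultures shared and no such counts given over all genes, these describe the lists only.

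**Figure D5:**
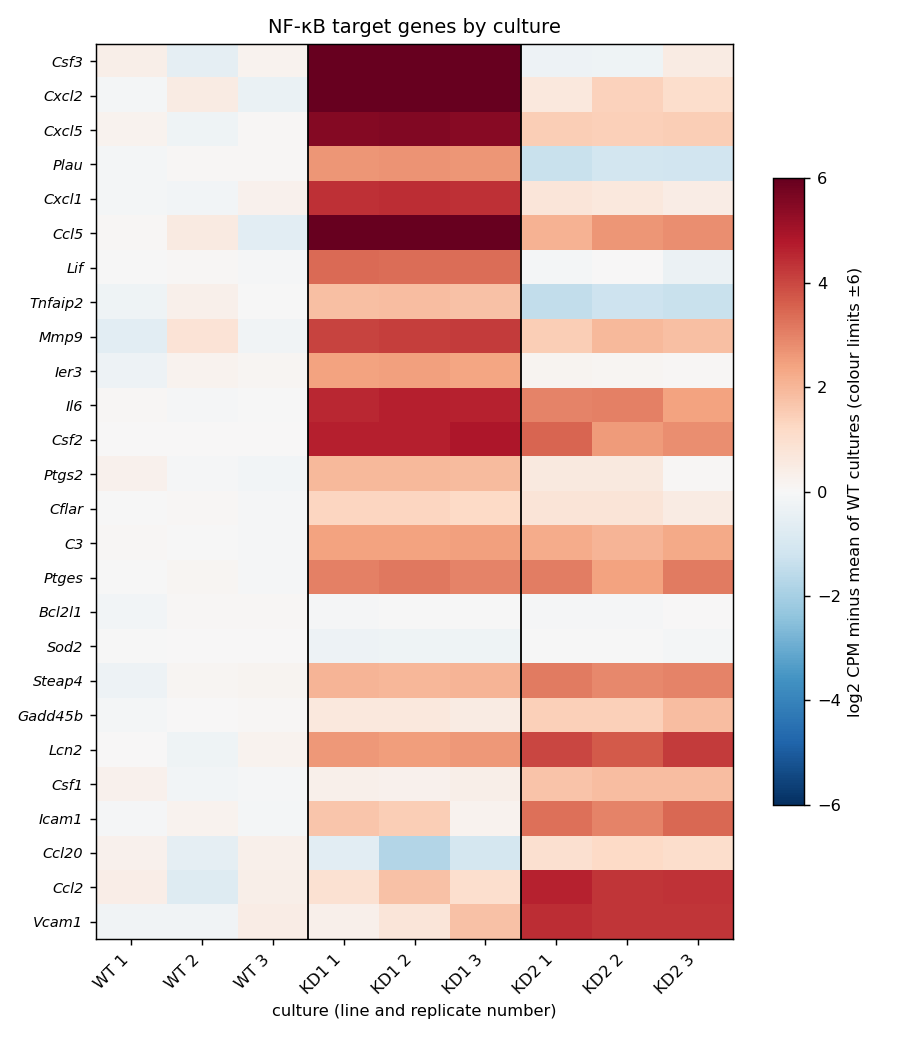
Log2 CPM minus the mean of the *WT* cultures (colour, limits ±6) of the 26 tested NF-κB target genes (rows, ordered by *KD1* minus *KD2*) in the 9 cultures (columns). *Csf3*, *Cxcl2* and *Cxcl5* are deep red in *KD1* alone, whereas *Ccl2* and *Vcam1* at the foot are red mainly in *KD2*.

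Set directly against each other, the lines differed in 1 of the 10 members by the call, *Ptx3*, where 23.3% of all genes were called (14.7% higher and 8.58% lower). Cultures were separated for 6 members, where 71.6% of all genes were (36.7% above and 35% below): *Ptx3* above *KD1*, and *Nfkb1*, *Nfkb2*, *Rel*, *Nfkbia* and *Tnfaip3* below. The log2 difference of *KD2* from *KD1* was -0.49 (SE 0.05) for *Nfkb1*, -0.27 (SE 0.07) for *Nfkb2*, -0.46 (SE 0.07) for *Rel*, -0.38 (SE 0.07) for *Nfkbia* and -0.50 (SE 0.08) for *Tnfaip3*. *Rela* (-0.10, SE 0.07), *Relb* (-0.08, SE 0.09), *Tlr2* (0.17, SE 0.08) and *Tlr4* (0.03, SE 0.12) had overlapping cultures, so no difference beyond the spread was seen. Among the 26 tested targets, 6 stood above *KD1* and 13 below it in *KD2*, called by edgeR's quasi-likelihood test, with a median of -1.03, and over all genes tested the median was 0.02.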

How the data were processed

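RNA-seq counts from 9 HC11 cultures, 3 each of *WT*, *KD1* and *KD2* by the labels, were analysed. The authors deposited raw whole-number counts per gene; before that, reads with an average quality under 20 had been removed with fastp, the rest mapped to GRCm38 with HISAT2 and counted over exons with featureCounts. Tool versions and strandedness are not given in the sources used here.

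Counts were scaled by TMM and fitted in edgeR (version 4.0.16, R version 4.3.3) with the quasi-likelihood test, in 1 fit of all 9 cultures after edgeR's expression filter, with Benjamini-Hochberg adjustment over the 15253 genes tested; the script was tested on simulated data. A call needed a log2 fold change beyond 1 in size as well as an adjusted p under 0.05. A group with 1 to 3 counts is compared by the ratio of summed scaled counts with a 95% exact (Clopper-Pearson) interval, and a group without counts by a floor of 3 counts per library. RPKM used the joined length of all exons of a gene in GENCODE M21. That release also gave exon overlaps and windows of 50 bases shared between genes. The methods name a different GENCODE release for counting, so lengths and overlaps may differ slightly from those behind the counts.

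The members and lists were chosen with earlier results of these data known. From each list the text names the genes called in any comparison, or, above 4 of them, the 4 with the largest absolute log2 fold change among those with a mean log2 CPM above 0, together with genes said to be picked after their values were seen. Genes like *Ptx3* are the 5 with the smallest root mean square distance. Alternatives were DESeq2 1.42.0, other size factors, other filters, the 6 cultures compared, the replicate block and each culture left out. *Nos2*, *Irf1* and *Cxcl10* were left out of the target list because they are interferon targets too and their values were known. Genes kept on it, *Ccl5* among them, may also respond to interferon.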

Additional observations from a re-analysis of the deposited data

Results flagged for a closer look

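The effects of the edited lines differed by a test of *KD2* against *KD1* (edgeR's quasi-likelihood test, called at an adjusted p under 0.05 and over 2-fold) for 27 named pathway genes. These genes were named because they were called in a comparison, this one included, or after their values were seen, so nothing is read from their number. Of all 89 tested pathway genes, 40 were called between the lines (44.9%), where 23.3% of all genes were. The values of the 27 genes are given as the log2 fold change in *KD2* minus that in *KD1*. The value for *Ptx3*, a ratio of *KD2* to *KD1* of 2248, is a description, for which no p-value is given.

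Genes that stood higher in *KD2* than in *KD1* were *Lbp* (6.79), *Tlr1* (4.91), *Ccl20* (2.72), *Tlr5* (2.33), *Tnfaip6* (2.18), *Traf1* (1.58), *Tnfrsf1b* (1.50), *Lcn2* (1.39) and *Map3k14* (1.34). *Lbp*, *Tlr1* and *Tlr5* come from the list of Toll-like receptors and their partners. The sizes for *Lbp* and *Tlr1* rest on a few counts in *KD1*.

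Genes that stood lower in *KD2* than in *KD1* were *Csf3* (-7.89), *Il1a* (-7.85), *Cxcl2* (-5.41), *Cxcl5* (-4.05), *Plau* (-3.84), *Ccl5* (-3.82), *Cxcl1* (-3.80), *Lif* (-3.51), *Tnfaip2* (-3.18), *Tnip3* (-2.48), *Zc3h12a* (-2.16), *Il1rn* (-1.91), *Csf2* (-1.87), *Il6* (-1.76), *Birc3* (-1.75), *Has2* (-1.36), *Ripk2* (-1.23) and *Nfkbiz* (-1.05). *Csf3*, *Il1a*, *Cxcl2* and *Cxcl5*, which head this group of genes lower in *KD2*, encode secreted cytokines and chemokines.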

How the results depend on the processing

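Over 17 alternatives a result, 3 to 4 members were called in *KD1* and 2 to 3 in *KD2*. Requiring at least 10 counts in every culture removed *Ptx3*, so that 0 members were called between *KD2* and *KD1* (edgeR, by the filter's own construction). By testing fewer genes, that filter also brought the pathway genes called from 39 to 28 in *KD1* and from 38 to 22 in *KD2*. Over all alternatives, 28 to 41 pathway genes were called in *KD1*, 22 to 40 in *KD2* and 27 to 45 between the lines. With each culture left out in turn, pathway genes called numbered 36 to 40 in *KD1*, 36 to 39 in *KD2* and 40 to 44 between the lines.

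Log2 fold changes of members that moved by more than the spread between replicates were few. For *Nfkb1* the value in *KD1* was 0.45 with the stricter filter and 0.46 with only the 6 cultures compared (0.40 to 0.45 leaving out 1 culture, or *WT* replicate 1 and *KD2* replicate 3 together), in *KD2* -0.0031 with that filter and 0.036 with library size alone, and between the lines -0.36 with library size alone. For *Rel* in *KD1* it was 0.81 with only the 6 cultures, and for *Rela* in *KD1* 0.11 with the stricter filter and 0.11 with only the 6 cultures. For *Tnfaip3* between the lines it was -0.38 with library size alone. The fitted values of *Ptx3* depend on its 1 count in *KD1*: -9.20 in DESeq2 and -10.63 to -8.35 leaving out 1 culture in *KD1*, 11.01 in DESeq2 and 10.17 to 12.45 between the lines, and 1.93 with library size alone in *KD2*. The cause of the other shifts was not tested.

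Of named pathway genes, *Tlr1* in *KD1* turned to 0.53 and 0.38 without *KD1* replicate 1 and *WT* replicate 3 (-1.02 to 0.53 leaving out 1 culture), and *Csf3* in *KD2* to 0.036 with the stricter filter, 0.075 with library size alone and positive values without *KD2* replicate 1 or 2 or *WT* replicate 1 or 3 (-0.27 to 0.13 leaving out 1 culture). Neither was called. Another 20 values over 9 genes and comparisons crossed the adjusted p of 0.05, 10 each way. With the replicate number as a block, pathway genes called were 39 in *KD1*, 38 in *KD2* and 40 between the lines, and members called 4, 2 and 1, as without it. Deviations of same-numbered cultures had a mean correlation across genes of 0.00116 (-0.0652 to 0.0789), so no pairing by number was seen. With so few cultures a line, and *WT* replicate 1 and *KD2* replicate 3 standing apart, these correlations cannot exclude a shared day or batch. Without *WT* replicate 1 and *KD2* replicate 3, an alternative chosen after seeing the data, the pathway counts were 39, 36 and 40. At these depths genes with a few counts a library in some line, such as *Lbp*, *Tlr1*, *Csf2* and *Ccl20*, are imprecise.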
